A study of Homo sapiens with 9 samples.

Results

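The comparison described here sets 2 related compounds, FB23-2 and FB23, directly against each other: the 3 libraries labelled FB23-2 were compared with the 3 labelled FB23, which are 6 of the 9 libraries of the series. The cells are labelled NB4, an established line derived from a human acute promyelocytic leukaemia, although the labels give the cell type as acute monocytic leukemia. The cells had received the solvent DMSO, FB23 or FB23-2 for 48 h, and poly(A) RNA was sequenced from 3 libraries per treatment. Both compounds carry the treatment label FTO inhibition. Doses are not given in the labels, so the 2 treatments were compared at the same time, as they were applied, and this was the only pair of compounds (1 pair). No label ties the replicates to independent cultures, and p-values therefore measure only how far these libraries spread, which may be technical.

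FTO is a demethylase that removes the methyl group from N6-methyladenosine (m6A), the most common internal mark of messenger RNA. A complex built around METTL3 and METTL14 writes the mark, ALKBH5 also erases it, and proteins of the YTH and IGF2BP families read it and set the splicing, translation or decay of the transcript. Compounds that act on FTO are studied in acute myeloid leukaemia for their effects on growth and differentiation. RNA levels alone, which are what was measured here, do not show the mark itself.

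Expected counts per library summed to between 12360291 and 38410750, and of the 26830 genes listed 13365 passed the filter on low counts. The main axis of variation, with 87.5% of the variance, separated the 3 FB23-2 libraries from all others. Counts were somewhat more concentrated with FB23-2, where 10 genes held 6.95% to 7.32% of them, than with FB23 (5.65% to 5.83%). The scale matters here: log2 fold changes are given on counts scaled by edgeR's trimmed mean of M-values (TMM), and by limma on log2(TPM + 1) (TPM is the authors' transcript level, scaled for gene length and library) the log2 fold change of a gene was 0.22 higher at the median of the gene by gene differences. TPM is used below for levels in single libraries. In RNA from whole cultures, fewer cells of one kind and less RNA per cell cannot be told apart.

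The labelled line was checked against its defining genes. Of 16 promyelocyte granule genes only SRGN, which many blood cells also express, had enough counts to be tested, and 8 of the 16, among them MPO and CTSG, had no count in the 6 libraries. Their summed level was 2.23 to 2.51 TPM with FB23 and 3.28 to 4.43 TPM with FB23-2. Red cell genes were instead among the most abundant: globins and other genes of that list summed to 33900 to 36220 TPM with FB23 and 5328 to 5877 TPM with FB23-2. The libraries are called by their labels here, as names only. The myeloid marker CD33 was present in every one, at 38, 39.6 and 38.7 TPM with FB23 and 42.9, 44.4 and 45.9 TPM with FB23-2. Of 33 myeloid maturation markers in the files, however, 17 had too few counts to be tested. Among these, S100A8 had 0 counts over the FB23 libraries and 1 over the FB23-2 libraries, and CD14 had 21 and 13.

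FB23-2 and FB23 left very different transcriptomes. With FB23-2 the cells held 71.3 times as much transcript of CDKN1A, the p21 inhibitor of cyclin-dependent kinases, and far more of ITGAX, KLF2 and BCL6, and much less of the embryonic globin HBZ, of ribosome assembly factors such as NOP16 and of the mitotic kinase PLK1. Of the 13365 genes tested, 10890 (81.5%) differed between the compounds at an edgeR adjusted p under 0.05, 5395 of them higher with FB23-2 (40.4% of genes tested) and 5495 lower (41.1%). With limma on log2(TPM + 1), which changes both the scale and the test, the split was 6621 higher and 4130 lower, that is 61.6% of calls higher in place of 49.5%. A total of 4300 genes differed by at least 1 on the log2 scale, 2419 of them higher and 1881 lower. Among the 408 genes that differed by at least 3, however, 360 were higher and 48 lower. Of the tested genes 774 reached the filter on low counts only because the FB23-2 libraries were counted, so that their direction was largely set by the filter, and 662 of these were called higher. ITGAX was among the 774, with 42 counts over the 3 FB23 libraries and 11 over the 3 DMSO libraries.

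**Figure D1:**
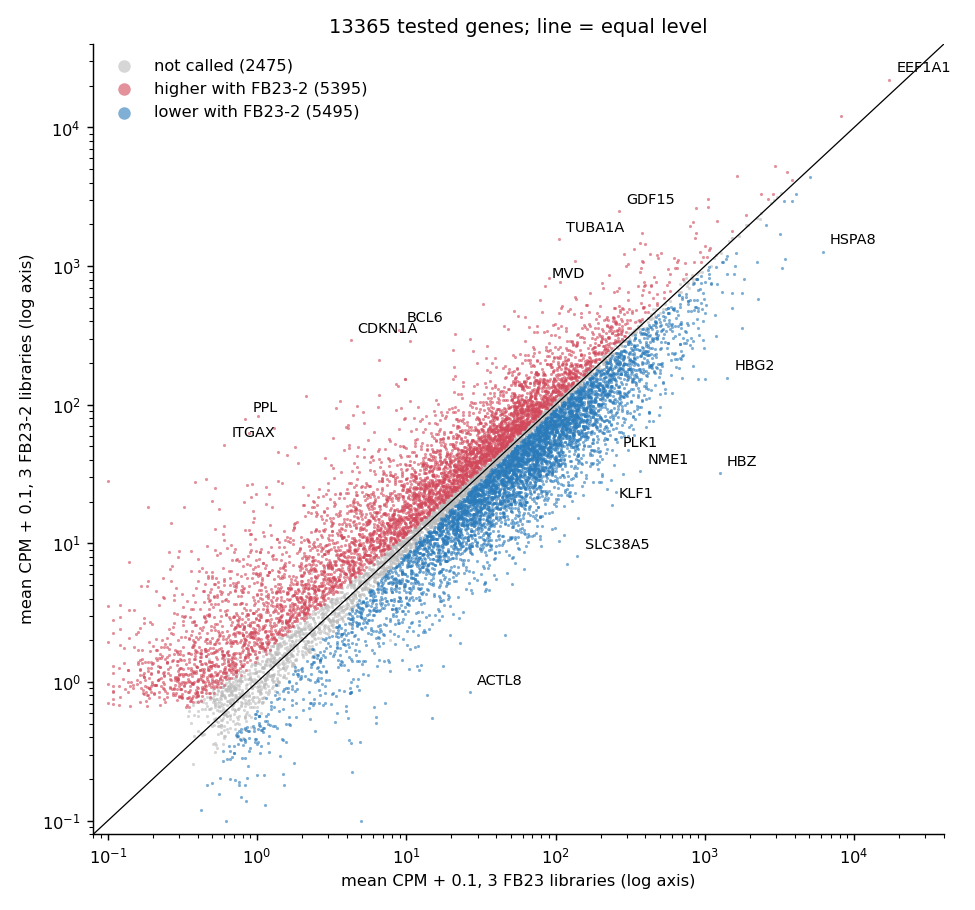
Mean CPM (counts relative to the TMM-scaled library size) with 0.1 added, of each of the 13365 tested genes in the 3 FB23 libraries (horizontal, log axis) and the 3 FB23-2 libraries (vertical, log axis). The 5395 genes higher with FB23-2 lie above the line of equal level, the 5495 lower lie below it, and the 2475 genes not called lie along it.

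CDKN1A (chr6:36676460-36687339 in GENCODE 29 on GRCh38) measured 3.38, 3.24 and 2.97 TPM with FB23 and 272, 265 and 257 TPM with FB23-2, against 1.38 to 1.77 TPM with DMSO. All 3 FB23-2 libraries were thus far above the other 6 (log2 fold change 6.16 ± 0.07 (SE), edgeR adjusted p = 1.64e-19). The leukocyte integrin ITGAX (CD11c) measured 0.13, 0.18 and 0.15 TPM with FB23 and 18.8, 18.2 and 19.3 TPM with FB23-2, a log2 fold change of 6.60 ± 0.13. PPL, which encodes the desmosome and cytoskeleton linker periplakin, measured 0.17, 0.19 and 0.14 TPM with FB23 and 20.9, 21.9 and 20.6 TPM with FB23-2 (log2 fold change 6.75 ± 0.11). In each of these genes even the lowest FB23-2 library was many times above the highest FB23 library. The zinc finger factor KLF2, known for restraining proliferation and inflammation, measured 1.16, 1.02 and 1.17 TPM with FB23 and 72.7, 77.6 and 73.5 TPM with FB23-2. The transcriptional repressor BCL6 measured 3.54, 3.7 and 3.92 TPM with FB23 and 161, 176 and 177 TPM with FB23-2. The cytokine receptor IL21R, the matrix cross-linking enzyme LOXL2, the homeobox gene MEIS3, BAIAP3, the chaperone HSPA6 and MIR210HG, the host transcript of a hypoxia-responsive microRNA, were also among the 12 highest (chosen above a floor on mean expression), with log2 fold changes of 5.0 to 6.13. These 12 were chosen among genes whose groups did not overlap in CPM, which held for 81.2% of all tested genes.

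At the other end, HBZ (chr16:152687-154503), the zeta globin of the embryo, measured 7934, 7591 and 8395 TPM with FB23 and 238, 243 and 214 TPM with FB23-2, against 6770.2 to 7434 TPM with DMSO, so that it fell by a factor of 38.9 between the compounds (log2 fold change -5.28 ± 0.09). SLC38A5, a transporter of glutamine and other neutral amino acids, measured 118, 114 and 116 TPM with FB23 and 8.16, 8.24 and 6.95 TPM with FB23-2. TNFRSF8, which encodes the activation receptor CD30, measured 19.3, 17.3 and 18.5 TPM with FB23 and 1.05, 0.85 and 1.09 TPM with FB23-2. HEMGN, a nuclear protein of red cell precursors, measured 95.1, 83.3 and 78.6 TPM with FB23 and 5.41, 5.82 and 6.27 TPM with FB23-2. All of these were low in each FB23-2 library and high in each FB23 library. The actin-related gene ACTL8 had 23.1, 24.9 and 23.6 TPM with FB23 and 0.67, 1.03 and 0.67 with FB23-2, and the potassium channel gene KCNQ5 3.3, 3.33 and 2.98 and 0.09, 0.12 and 0.15 TPM. ARHGAP22, PLD6, SOX21, BCL6B, PCOLCE2 and the antisense gene USP2-AS1, which can share reads with its partner because the strand setting of the counting is not given, were the other 6 of the 12 lowest, at -4.21 to -3.71.

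The processes that separated the compounds were described with 42 lists of genes, read against the background that 40.4% of tested genes were higher with FB23-2 and 41.1% lower, with a median log2 fold change of 0.002. This background depends on the scaling, since TMM takes most genes as unchanged. By limma on log2(TPM + 1) the median over all genes was 0.185. Ribosome assembly, heat shock chaperones, red cell genes, mitochondrial ribosomes, nucleotide synthesis, tRNA synthetases, mitochondrial import, RNA polymerases I and III, the proteasome and the respiratory chain had medians of -1.0 or lower. Genes often raised by histone deacetylase inhibitors, NF-kB and cytokine genes, immediate-early genes, histones, hypoxia targets and cholesterol synthesis had medians of 1.55 or higher, as did short lists of lymphoid and of epithelial, neural and stromal markers. Lists of cytosolic ribosomal proteins, stress response, NRF2 and chromatin acetylation genes had medians close to 0.

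**Figure D2:**
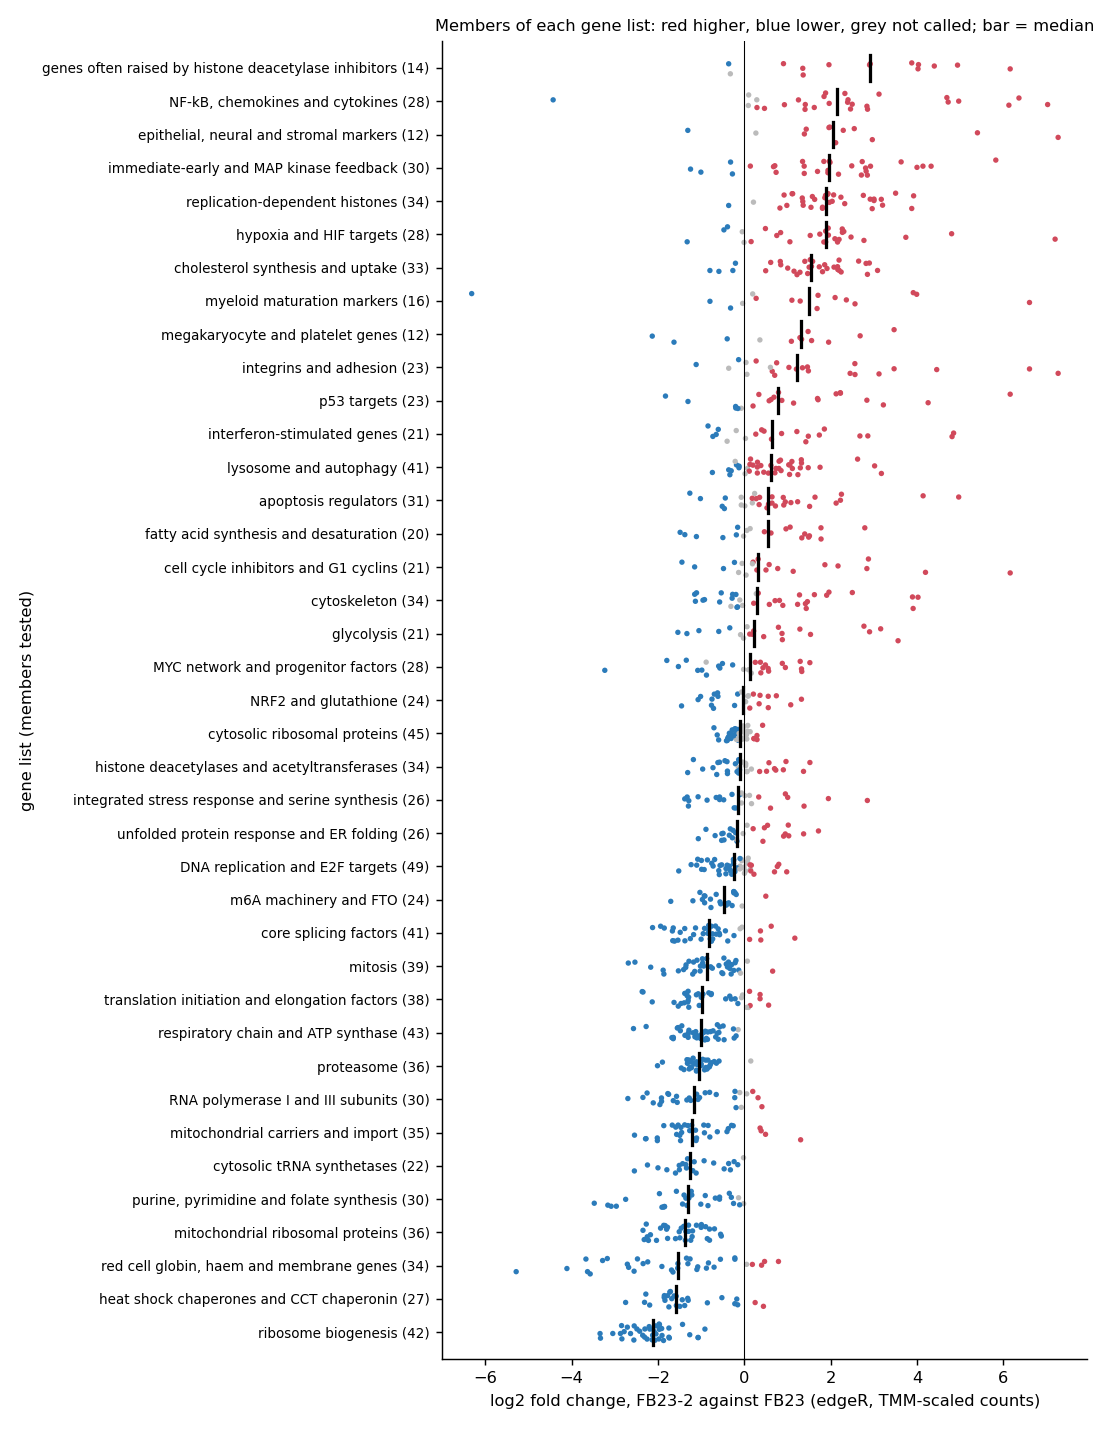
Log2 fold change, FB23-2 against FB23, of each tested member (point) of the lists with at least 10 tested members, with the number tested in parentheses and the median as a bar. Red points were called higher with FB23-2, blue lower and grey not called. The order runs from ribosome biogenesis (median -2.11) to genes often raised by histone deacetylase inhibitors (median 2.91); the medians of cytosolic ribosomal proteins, the integrated stress response, the unfolded protein response, NRF2, histone deacetylases and acetyltransferases and the MYC network, all near 0, changed sign under other scalings.

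Ribosome assembly genes were lower with FB23-2 without exception. All 42 tested members were called lower, 41 of them by at least 1 on the log2 scale, with a range of -3.34 to -0.91 and a median of -2.11. NOP16, a nucleolar assembly factor of the large subunit, measured 87.1, 88.8 and 93.7 TPM with FB23 and 9.66, 11.8 and 9.83 TPM with FB23-2, against 108 to 118 TPM with DMSO (log2 fold change -3.34 ± 0.09). RRS1, which acts in the same pathway, measured 109, 113 and 122 TPM with FB23 and 13.2, 14.3 and 12.5 TPM with FB23-2. MYBBP1A, a nucleolar protein that binds MYB, measured 85.8, 83.5 and 85.3 TPM with FB23 and 11.6, 13.1 and 11.5 TPM with FB23-2. The summed level of the 42 genes was 9604 to 10190 TPM with FB23 and 3832 to 3956 TPM with FB23-2, with no overlap between the groups, and 11230 to 11430 TPM with DMSO.

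The polymerases that transcribe ribosomal and transfer RNA genes went the same way: 24 of 30 subunits and factors of RNA polymerases I and III were lower, 3 were higher and 3 were not called, with a median of -1.17. CD3EAP, a polymerase I subunit, measured 24.7, 24.4 and 22.5 TPM with FB23 and 4.58, 4.16 and 4.09 TPM with FB23-2. POLR1B, its second largest subunit, measured 33.5, 33 and 31.2 TPM with FB23 and 8.1, 8.01 and 7.92 TPM with FB23-2. POLR3G measured 29.1, 26.1 and 21.8 TPM with FB23 and 4.95, 6.52 and 6.31 TPM with FB23-2, whereas its paralogue POLR3GL, the alternative subunit at the same position of polymerase III, was higher with FB23-2 (log2 fold change 0.41 ± 0.07). MAF1, a repressor of polymerase III, was at 168 ± 10.8 CPM with FB23 and 175 ± 7.46 CPM with FB23-2 (mean ± SD, n = 3 each), with an interval of the log2 fold change of -0.05 to 0.17.

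The proteins of the ribosome itself did not follow its assembly factors. Of 45 cytosolic ribosomal protein genes, 38 had a 95% interval within 0.5 of 0 on the log2 scale, against 25.7% of all tested genes, and none differed by 1 or more. In all 19 were called lower, 5 higher and 21 not called, but the median of -0.11 turned to 0.11 with GC and length trends taken out. RPL11 had 919 ± 22.6 CPM with FB23 and 911 ± 34.4 CPM with FB23-2 (mean ± SD, n = 3 each; log2 fold change -0.01, interval -0.10 to 0.08). The member with the highest fold change was RPLP0 of the ribosomal stalk, at 5595, 5814 and 5934 TPM with FB23 and 9127, 9352 and 8676 TPM with FB23-2 (log2 fold change 0.42 ± 0.05). The lowest was RPL6, at 2215, 2186 and 2098 TPM with FB23 and 1524, 1531 and 1609 TPM with FB23-2 (log2 fold change -0.70 ± 0.04). These genes have many processed copies in the genome, between which reads may be split. In the mitochondria, by contrast, all 36 ribosomal protein genes were lower with FB23-2, with log2 fold changes of -2.35 to -0.53, and MRPL3 measured 238, 238 and 216 TPM with FB23 and 52.5, 49.9 and 56.9 TPM with FB23-2.

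**Figure D3:**
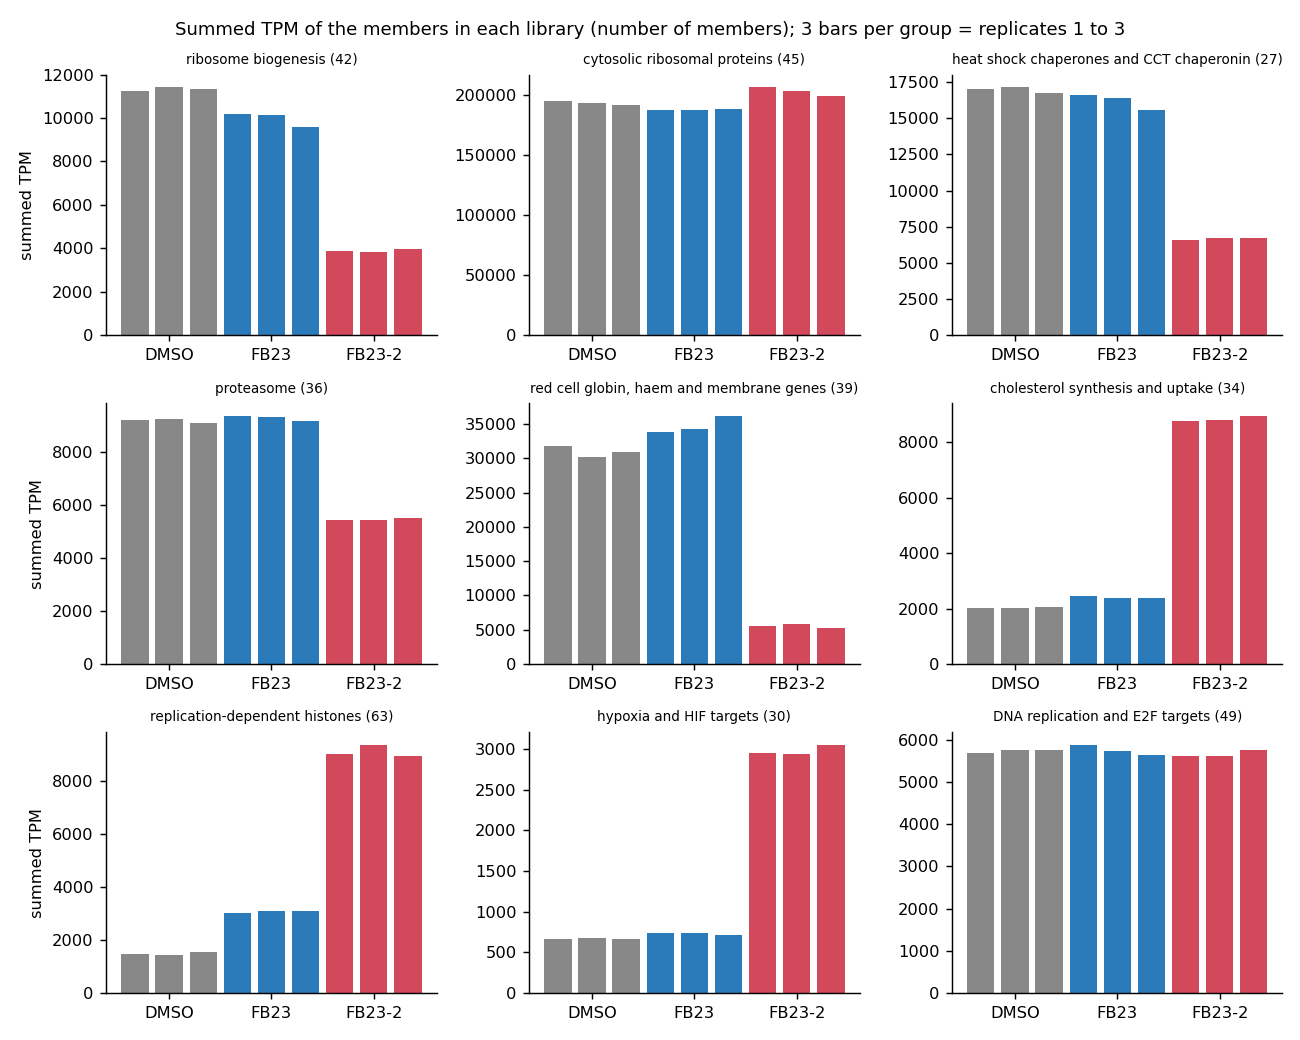
Summed TPM of the members of 9 lists in each library (bars, replicates 1 to 3 of DMSO, FB23 and FB23-2 from left to right; axes start at 0; number of members in the files in parentheses). The FB23-2 bars are lower for ribosome biogenesis, chaperones, the proteasome and red cell genes and higher for cholesterol synthesis, histones and hypoxia targets. The summed level of DNA replication genes overlaps between the groups, and that of cytosolic ribosomal proteins is 187200 to 188500 TPM with FB23 and 199000 to 206800 TPM with FB23-2.

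Translation, protein folding and protein breakdown genes were also mostly lower with FB23-2. Of 38 translation factors 29 were lower, 5 higher and 4 not called. Their summed level went the other way, at 25660 to 26150 TPM with FB23 and 30080 to 30640 TPM with FB23-2. EIF5A, which helps ribosomes through difficult peptide sequences, measured 748, 759.6 and 777 TPM with FB23 and 179, 173 and 165 TPM with FB23-2, and EIF2B3, a subunit of the exchange factor that recharges eIF2, had a log2 fold change of -2.35 ± 0.06. The elongation factor EEF2 was among the 5 that were higher, at 3763, 3957 and 4102 TPM with FB23 and 6969, 7053 and 6499 TPM with FB23-2 (log2 fold change 0.56 ± 0.06), and EEF1A1 was another (log2 fold change 0.36 ± 0.04), while EEF1G was not called (interval -0.04 to 0.15). Of 22 cytosolic tRNA synthetases 21 were lower, led by valyl-tRNA synthetase VARS at 151, 153 and 153 TPM with FB23 and 31.2, 31.2 and 29.6 TPM with FB23-2. Only the aspartyl enzyme DARS was not called, with an interval of -0.12 to 0.09.

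Cytosolic and mitochondrial chaperones had a median log2 fold change of -1.58, and 25 of the 27 tested members were lower. HSPD1, the mitochondrial chaperonin Hsp60, measured 1328, 1245 and 1124 TPM with FB23 and 284, 278 and 314 TPM with FB23-2 (log2 fold change -2.31 ± 0.05, edgeR adjusted p = 7.53e-17). HSPE1, its co-chaperonin, measured 482, 615 and 605 TPM with FB23 and 102, 93.6 and 101 TPM with FB23-2. The constitutive Hsp70 protein HSPA8 measured 4057, 4033 and 3796 TPM with FB23 and 933, 970 and 969 TPM with FB23-2. The 2 members that were higher were DNAJB4 (log2 fold change 0.44 ± 0.10) and the stress-inducible HSPA1A (0.25 ± 0.07), whose direction turned to -0.09 with GC and length trends removed and whose reads may be shared with a near-identical copy. HSPA6, an Hsp70 gene that is normally silent without stress and was not in that list, went from 0.34, 0.78 and 0.4 TPM with FB23 to 20.6, 21.8 and 20.2 TPM with FB23-2. The proteasome list had 35 of 36 members lower, with the assembly chaperone PSMG1 the lowest at 213, 199 and 173 TPM with FB23 and 53.8, 57.1 and 57.3 TPM with FB23-2; the remaining gene, the activator subunit PSME1, had an interval of -0.02 to 0.32.

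The 250 bases before the start of HSPD1 are shown because this promoter, of a gene that fell with its partner HSPE1, holds an E-box, the element bound by MYC and its partners. The sequence is from RefSeq, GRCh38.p14, chr2:197500275-197500524, minus strand, written 5′ to 3′ on the strand of the gene. CACGTG is in capitals, at position -88 from the start.

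HSPD1: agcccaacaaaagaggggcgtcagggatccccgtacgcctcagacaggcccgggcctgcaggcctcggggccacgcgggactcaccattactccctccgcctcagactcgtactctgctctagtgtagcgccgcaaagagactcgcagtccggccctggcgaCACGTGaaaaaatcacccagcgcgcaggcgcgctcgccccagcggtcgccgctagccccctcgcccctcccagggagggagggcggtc

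The letters CACGTG (identical on both strands) stood in the 250 bases before the start of 3 of 25 chaperone genes with a RefSeq promoter (12%) and 3 of 35 ribosome assembly genes (8.57%), against 8.99% of 10405 promoters of tested genes. When the 50 bases after the start were included, 14 of the 35 ribosome assembly genes held them (40.0%), against 10.3% of all promoters, while the chaperones stayed at 12%. Among nucleotide synthesis genes the shares in the shorter and longer window were 23.1% and 26.9%, and among mitochondrial ribosomal protein genes 8.82% in both. The 3 ribosome assembly genes with the letters in the shorter window had a median log2 fold change of -1.43, and the 32 without -2.08. A match is a description of the letters and not evidence of binding.

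Synthesis of purines, pyrimidines and folates was lower with FB23-2 for 28 of 30 genes, with 2 not called. NME1, a kinase that balances nucleoside triphosphates (chr17:51153536-51162428), measured 1183, 1113 and 1116 TPM with FB23 and 121, 119 and 114 TPM with FB23-2, a log2 fold change of -3.47 ± 0.05 and the lowest of the list. PFAS, an enzyme of purine synthesis, measured 59.1, 60.5 and 58 TPM with FB23 and 7.84, 7.43 and 8.09 TPM with FB23-2. The folate carrier SLC19A1 measured 67.1, 70.3 and 73.8 TPM with FB23 and 9.57, 9.68 and 10.2 TPM with FB23-2. IMPDH2, the enzyme that commits purines to guanine nucleotides, stood apart from them at 361 ± 11 CPM with FB23 and 357 ± 22.1 CPM with FB23-2 (mean ± SD, n = 3 each; interval -0.12 to 0.09), and the salvage enzyme HPRT1 was also not called.

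Nuclear genes of the respiratory chain and ATP synthase were lower in 42 of 43 cases, with a median log2 fold change of -1.0, with ATP5G1 of the ATP synthase ring at 396, 440.2 and 460.4 TPM with FB23 and 76.5, 93 and 84.7 TPM with FB23-2. Of 35 mitochondrial carriers and import proteins 31 were lower, led by the import pore TOMM40 at 403, 392 and 420.5 TPM with FB23 and 78.9, 87.3 and 78.3 TPM with FB23-2. The citrate carrier SLC25A1, which exports citrate for lipid synthesis, went the other way, at 355, 372 and 406 TPM with FB23 and 1116, 1133 and 1038 TPM with FB23-2 (log2 fold change 1.30 ± 0.07). Core splicing factors were lower for 34 of 41 genes. SRSF7, an SR protein, measured 173, 182 and 169 TPM with FB23 and 46.5, 47.8 and 46.8 TPM with FB23-2. CLK1, a kinase that phosphorylates SR proteins, measured 45.5, 46.9 and 43.1 TPM with FB23 and 118, 110.2 and 130 TPM with FB23-2, and SRSF5 was not called (interval -0.15 to 0.04).

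Mitosis genes were mostly lower, whereas DNA replication genes divided. In the mitosis list 36 of 39 tested genes were lower with FB23-2 and 1, the phosphatase CDC25C, was higher (log2 fold change 0.66 ± 0.08). CDC20, which activates the anaphase-promoting complex, measured 176, 185 and 189 TPM with FB23 and 31.4, 34.2 and 35.1 TPM with FB23-2 (log2 fold change -2.69 ± 0.06). The mitotic kinase PLK1 measured 185, 171 and 176 TPM with FB23 and 36, 35.9 and 35.9 TPM with FB23-2, against 215 to 222 TPM with DMSO, and these libraries did not overlap. Cyclin CCNB1, the partner of CDK1, measured 194, 189.6 and 184 TPM with FB23 and 48.6, 50.8 and 48.6 TPM with FB23-2. The FB23 and FB23-2 values of CCNB1 and CDC20 did not overlap either. In CPM, a lack of overlap held for 81.2% of all tested genes. The proliferation marker MKI67, however, was at 759 ± 24.6 CPM with FB23 and 714 ± 12.1 CPM with FB23-2 (mean ± SD, n = 3 each). It was not called (edgeR adjusted p = 0.0566), nor was NUSAP1 (interval -0.06 to 0.20).

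Of 49 DNA replication and E2F target genes, 29 were lower, 8 higher and 12 not called, with a median of -0.25, and 28 had an interval within 0.5 of 0. With limma on log2(TPM + 1) 19 were lower. The polymerase delta subunit POLD2 measured 212, 212 and 229 TPM with FB23 and 89.7, 90.5 and 87.2 TPM with FB23-2 (log2 fold change -1.52 ± 0.06), while its catalytic partner POLD1 had 285 ± 24.2 CPM with FB23 and 286 ± 22.5 CPM with FB23-2 (mean ± SD, n = 3 each; interval -0.12 to 0.13). E2F1, the transcription factor of S phase entry, measured 49.3, 47.6 and 48.1 TPM with FB23 and 109, 117 and 110 TPM with FB23-2 (log2 fold change 0.98 ± 0.05). E2F1 was higher, as were the next genes. The origin licensing factor CDT1 measured 142, 133 and 149 TPM with FB23 and 291, 302 and 272 TPM with FB23-2. Thymidine kinase TK1 measured 234, 231.8 and 257 TPM with FB23 and 485, 500.5 and 454 TPM with FB23-2. CDC6, which loads the replicative helicase, was not called (log2 fold change -0.01, interval -0.10 to 0.08), and the helicase subunit MCM5 was lower (log2 fold change -0.99 ± 0.05).

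The promoters of PLK1 and CDC20 are printed for the element known from genes of late cell cycle, the cell cycle homology region, searched as TTTGAA on both strands and shown in capitals. The lines give the 250 bases before the start (RefSeq, GRCh38.p14), PLK1 from chr16:23678639-23678888, plus strand, with a match at position -29, and CDC20 from chr1:43358731-43358980, plus strand, with matches at -178, where the capitals read TTCAAA, and -65.

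PLK1: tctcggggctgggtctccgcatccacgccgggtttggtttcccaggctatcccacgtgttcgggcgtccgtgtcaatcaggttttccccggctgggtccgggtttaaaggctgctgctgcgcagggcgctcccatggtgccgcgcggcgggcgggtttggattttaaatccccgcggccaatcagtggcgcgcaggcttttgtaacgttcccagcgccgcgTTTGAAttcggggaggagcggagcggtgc

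CDC20: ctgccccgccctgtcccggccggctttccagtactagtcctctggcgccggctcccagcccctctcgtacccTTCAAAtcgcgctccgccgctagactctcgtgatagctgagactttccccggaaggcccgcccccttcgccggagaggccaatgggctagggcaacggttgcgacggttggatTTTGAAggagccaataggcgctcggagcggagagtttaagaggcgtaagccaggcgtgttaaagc

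In this window the letters occurred in 18 of 34 mitosis genes with a promoter (52.9%), against 8.20% of all 10405 promoters, and CCAAT on either strand in 28 of 34 (82.4%), against 35.5%. The 18 genes with TTTGAA had a median log2 fold change of -0.68, and the 16 without it -1.02. For CCAAT the median was -0.91 in the 28 genes with it and -0.34 in the 6 without.

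In a mixed list of cell cycle inhibitors, growth arrest genes, G1 cyclins and their kinases most members were higher, while CDK6 and CDK4 were lower. Of 21 tested cell cycle inhibitors and G1 cyclins, 13 were higher with FB23-2, 4 lower and 4 not called. After CDKN1A, the atypical cyclin CCNG2 was the highest, at 1.36, 0.87 and 0.89 TPM with FB23 and 20.3, 19.7 and 22.8 TPM with FB23-2. The stress gene GADD45B came next, at 8.07, 7.4 and 7.63 TPM with FB23 and 66.5, 67.7 and 63 TPM with FB23-2. The kinase CDK6 measured 21.8, 21 and 18.7 TPM with FB23 and 8.11, 8.96 and 9.54 TPM with FB23-2. CDK4 measured 270.2, 267 and 275 TPM with FB23 and 143, 149.7 and 136 TPM with FB23-2, and their partner CCND3 was lower (log2 fold change -0.48 ± 0.05). The inhibitors CDKN1B (p27) and CDKN2C (p18) were not called, with intervals of -0.09 to 0.17 and -0.22 to 0.12. Too few counts were present to test the inhibitors CDKN2A and CDKN2B.

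Genes known as p53 targets were higher in 17 of 23 cases and lower in 5. CDKN1A belongs to this list as well. GDF15, a secreted stress cytokine, measured 433, 412 and 459.6 TPM with FB23 and 4766, 5017 and 4421 TPM with FB23-2. TP53INP1, an inducer of autophagy and cell death, measured 2.03, 1.61 and 1.29 TPM with FB23 and 34.2, 32.8 and 38.2 TPM with FB23-2. BAX, a classical target and pore-forming member of the BCL2 family, was not called (log2 fold change -0.07, interval -0.27 to 0.13), and TRIAP1, a p53-regulated inhibitor of apoptosis, was lower (log2 fold change -1.82 ± 0.07). Among 31 apoptosis regulators 21 were higher and 5 lower. The BH3-only gene BMF measured 1.18, 1.22 and 1.3 TPM with FB23 and 26.8, 25.6 and 25.6 TPM with FB23-2. The inhibitor of apoptosis BIRC3 measured 0.17, 0.07 and 0.06 TPM with FB23 and 3.4, 3.07 and 3.06 TPM with FB23-2. BID, another BH3-only gene, was lower, at 27.1, 26.6 and 29.5 TPM with FB23 and 13, 14.4 and 13.5 TPM with FB23-2. The survival gene MCL1 was higher, at 133, 130.1 and 115 TPM with FB23 and 272, 258 and 299 TPM with FB23-2, and BCL2 was not called (interval -0.01 to 0.49).

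Red cell genes, which with FB23 summed to more than any other cell type list, were mostly lower. Of the 34 tested genes of globin, haem and membrane formation, 29 were lower with FB23-2, 4 higher and 1 not called, and their summed level of 33900 to 36220 TPM with FB23 and 5328 to 5877 TPM with FB23-2 compares with 30150 to 31750 TPM with DMSO. HBG2, a fetal globin with a close copy between which reads may be split, measured 9121, 9120 and 9462 TPM with FB23 and 1145, 1245 and 1094 TPM with FB23-2 (log2 fold change -3.17 ± 0.08). KLF1, the transcription factor that switches on globin and membrane genes, measured 251, 239.6 and 278 TPM with FB23 and 21.4, 25.5 and 24.6 TPM with FB23-2 (log2 fold change -3.67 ± 0.08). The early haem enzyme ALAD was higher instead, at 17.6, 18.6 and 17.1 TPM with FB23 and 35.5, 36 and 37.2 TPM with FB23-2. The band 3 anion exchanger SLC4A1, at 0.58, 0.64 and 0.45 TPM with FB23 and 0.58, 0.79 and 0.65 TPM with FB23-2, was not called. Megakaryocyte and platelet genes were measured beside them: 8 of 12 were higher and 3 lower, with a summed level of 696 to 798 TPM with FB23 and 854 to 882 TPM with FB23-2, and the defining genes PF4, PPBP and GP9 had no count in the 6 libraries. Their part in the red cell result was not tested. ITGB3, an integrin of platelets, was higher, at 0.22, 0.13 and 0.09 TPM with FB23 and 1.59, 1.48 and 2.06 TPM with FB23-2. Only the FB23-2 libraries brought ITGB3 and 1 more of the 12 platelet genes past the filter on low counts. Both were called higher, and of the other 10, with a median of 1.19, 6 were higher and 3 lower. NFE2, a factor shared by red cells and platelets, was lower, at 227, 218 and 225 TPM with FB23 and 83.8, 84.7 and 85.6 TPM with FB23-2.

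ALAS2, which catalyses the first step of haem synthesis in red cells and was chosen for display after its values were seen, measured 112, 111 and 118 TPM with FB23 and 44.8, 47.9 and 44.9 TPM with FB23-2. The 250 bases before its start (RefSeq, GRCh38.p14, chrX:55030978-55031227, minus strand) are shown for the GATA element, searched as AGATAA on both strands, with the match in capitals at position -127.

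ALAS2: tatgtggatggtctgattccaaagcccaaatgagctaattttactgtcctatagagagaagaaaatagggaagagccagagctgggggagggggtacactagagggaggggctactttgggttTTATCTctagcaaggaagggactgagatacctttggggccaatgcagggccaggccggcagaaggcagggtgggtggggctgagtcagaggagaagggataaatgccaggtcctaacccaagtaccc

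AGATAA stood in the window of 7 of 19 red cell genes with a promoter (36.8%), against 4.46% of all promoters. These 7 had a median log2 fold change of -1.54, and the 12 without -1.2. The element CCACACCC, known as a binding site of KLF1, stood in 0 of the 19, against 2.69% of all promoters.

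Transcription factors of progenitor cells went both ways, as did tested genes in general. MYC measured 566, 559 and 554 TPM with FB23 and 230.2, 235 and 218 TPM with FB23-2, against 679 to 687 TPM with DMSO (log2 fold change -1.53 ± 0.05), and LIN28B, an RNA-binding protein of fetal blood formation, 40.7, 35.9 and 33.7 TPM with FB23 and 4.35, 4.36 and 5.16 TPM with FB23-2. MXD4 and MXD1, which compete with MYC for its partner MAX, were both higher. MXD4 measured 18.9, 19.3 and 22.3 TPM with FB23 and 67.2, 72.5 and 66.2 TPM with FB23-2. MXD1 measured 6.19, 6.04 and 5.49 TPM with FB23 and 16.6, 16.6 and 19 TPM with FB23-2. In the list as a whole 13 of 28 genes were higher and 11 lower, beside 40.4% and 41.1% of all tested genes. The list's median of 0.13 turned to -0.33 with GC and length trends removed. RARA, the retinoic acid receptor that is rearranged in promyelocytic leukaemia, was lower (log2 fold change -0.57 ± 0.09), and CEBPA, a myeloid lineage factor, was not called (interval -0.11 to 0.30).

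Myeloid maturation markers were higher in 11 of 16 tested cases (33 in the files) and lower in 3, with a summed level of 454 to 514 TPM with FB23 and 558 to 593 TPM with FB23-2. Most of that sum was CYBA, a small subunit of the NADPH oxidase, at 410, 372 and 429 TPM with FB23 and 367, 391 and 363 TPM with FB23-2, which was called lower (log2 fold change -0.32 ± 0.07). Of the 16 tested genes 5, all called higher, passed the filter on low counts only through the FB23-2 libraries, and of the other 11, with a median of 0.27, 6 were higher and 3 lower. Besides ITGAX, the complement receptor C5AR1 measured 0.34, 0.25 and 0.12 TPM with FB23 and 3.81, 3.31 and 4.82 TPM with FB23-2. Both ITGAX and C5AR1 are among the 5 that passed only through the FB23-2 libraries. The lowest member was CD36, at 0.67, 0.18 and 0.39 TPM with FB23 and 0 TPM in each FB23-2 library (log2 fold change -6.31 ± 1.17). It had few counts, 36 over the FB23 libraries. The larger NADPH oxidase subunit CYBB was lower, at 1.92, 1.64 and 1.47 TPM with FB23 and 0.99, 1.08 and 1.32 TPM with FB23-2, CD33 had an interval of -0.18 to 0.10, and CD86 and CD163 had no count. Markers of unrelated lineages were higher beside them. All 3 tested lymphoid markers, PRF1, CD3D and ZAP70, were higher, with CD3D at 4.54, 4.68 and 3.85 TPM with FB23 and 29.5, 34 and 33.2 TPM with FB23-2, while the defining genes MS4A1, LCK and IL7R had no count. Of 12 tested epithelial, neural and stromal markers 10 were higher and 1 lower, but 4 of the 10 passed the filter on low counts only through the FB23-2 libraries, as did 2 of the 3 lymphoid genes. KRT19, a simple epithelial keratin, measured 69.4, 64.2 and 70.2 TPM with FB23 and 644, 625 and 593 TPM with FB23-2. The epithelial adhesion molecule EPCAM was the 1 that was lower, at 57.7, 55.1 and 49.8 TPM with FB23 and 25.5, 24.3 and 26.8 TPM with FB23-2. The summed level of the lymphoid list was 5.36 to 7.02 TPM with FB23 and 40.5 to 44.2 TPM with FB23-2. That of the epithelial, neural and stromal list was 2036 to 2134 TPM with FB23 and 7022 to 7579 TPM with FB23-2, and in it KRT14, NEFM and SNAP25 had no count. Their part in the myeloid result was not tested.

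**Figure D4:**
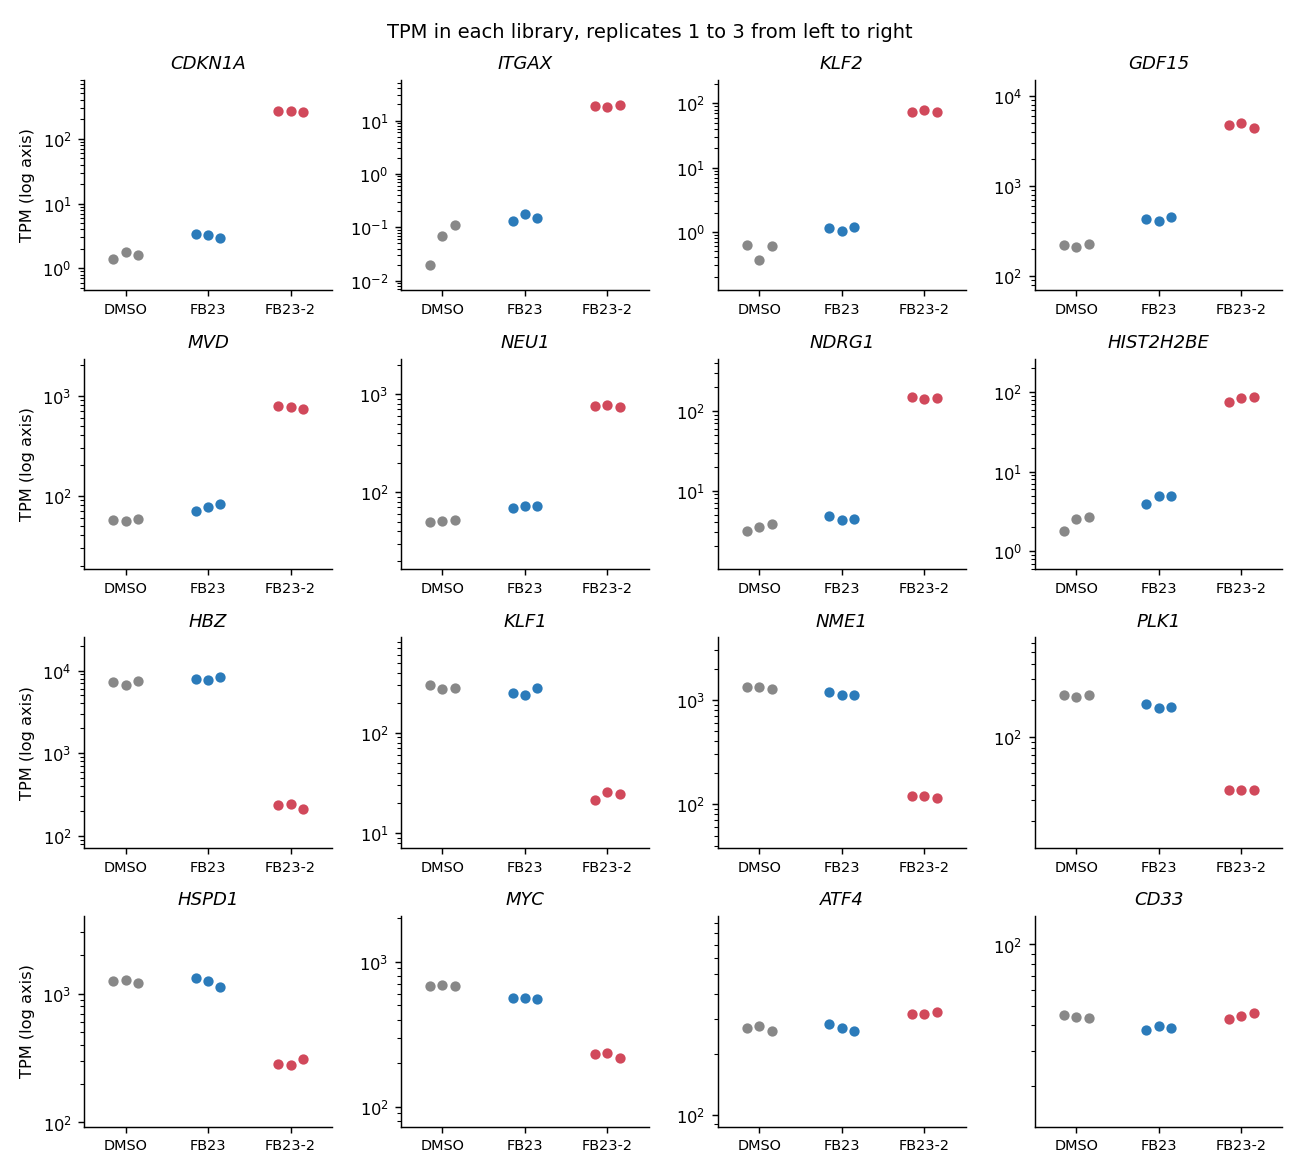
TPM (log axis) of 16 genes in every library, replicates 1 to 3 from left to right within DMSO (grey), FB23 (blue) and FB23-2 (red). The FB23-2 points stand above the other 6 for CDKN1A, ITGAX, KLF2, GDF15, MVD, NEU1, NDRG1 and HIST2H2BE and below them for HBZ, KLF1, NME1, PLK1, HSPD1 and MYC. ATF4 and CD33 were not called on TMM-scaled counts.

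Cholesterol synthesis and uptake genes were higher with FB23-2. Of 33 tested genes 29 were higher with FB23-2, 25 of them by at least 1 on the log2 scale, and 4 were lower, with a median of 1.55. MVD, which makes isopentenyl diphosphate (chr16:88651935-88663161), measured 70.5, 76.7 and 81.6 TPM with FB23 and 780.2, 774 and 742 TPM with FB23-2, against 55.3 to 58 TPM with DMSO (log2 fold change 3.08 ± 0.07). LSS, which closes the sterol ring, measured 63.3, 60.6 and 61.3 TPM with FB23 and 508, 535 and 528 TPM with FB23-2. STARD4, a sterol carrier, measured 15.6, 15.8 and 12.9 TPM with FB23 and 125, 118 and 143 TPM with FB23-2. The groups were far apart in each of these genes. HMGCS1, an early enzyme of the pathway, measured 64, 62.2 and 55.3 TPM with FB23 and 261, 255 and 289 TPM with FB23-2. The 4 lower genes were the ubiquitin ligase MYLIP (-0.80 ± 0.06), the mevalonate pathway kinase PMVK (-0.59 ± 0.11), the sterol sensor SCAP (-0.27 ± 0.05) and NR1H2, a liver X receptor (-0.20 ± 0.08), whose sign turned to 0.04 by limma on log2(TPM + 1). The summed level of the list was 2388 to 2446 TPM with FB23 and 8759 to 8947 TPM with FB23-2.

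Fatty acid genes were mixed, 11 of 20 higher and 6 lower. ACSS2, which makes acetyl-CoA from acetate, measured 32.2, 35.6 and 32.9 TPM with FB23 and 275, 275 and 273 TPM with FB23-2. The phosphatidate phosphatase LPIN1 measured 25, 24.1 and 22 TPM with FB23 and 93.9, 90.4 and 102 TPM with FB23-2. GPAM, which starts glycerolipid synthesis, was lower, at 9.3, 8.92 and 7.48 TPM with FB23 and 3.53, 3.37 and 3.81 TPM with FB23-2, and the elongase ELOVL5 was not called (interval -0.04 to 0.16).

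The promoter of MVD is shown as that of the highest gene of the cholesterol list, for the CCAAT box (searched as CCAAT, which reads ATTGG on the other strand; RefSeq, GRCh38.p14, chr16:88663092-88663341, minus strand). The 3 matches, in capitals, begin between positions -159 and -85.

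MVD: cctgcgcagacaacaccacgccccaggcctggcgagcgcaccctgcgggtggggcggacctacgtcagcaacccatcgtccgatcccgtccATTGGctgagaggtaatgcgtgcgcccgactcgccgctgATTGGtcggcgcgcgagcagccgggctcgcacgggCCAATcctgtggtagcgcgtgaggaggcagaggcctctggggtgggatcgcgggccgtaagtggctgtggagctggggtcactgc

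CCAAT occurred in 17 of 26 cholesterol genes with a promoter (65.4%), against 35.5% of all promoters, and the sterol regulatory element TCACNCCAC in 1 of 26 (3.85%), against 0.807%. The 17 genes with CCAAT had a median log2 fold change of 1.92, and the 9 without 0.83.

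Targets of hypoxia-inducible factor were higher in 23 of 28 cases and lower in 3, with a median of 1.88. Only the FB23-2 libraries brought 2 of the 28 past the filter on low counts, among them ADM, and both were called higher. Of the other 26, with a median of 1.86, 21 were higher and 3 lower. NDRG1, a stress-responsive growth suppressor, measured 4.86, 4.31 and 4.38 TPM with FB23 and 152, 143 and 145 TPM with FB23-2 (log2 fold change 4.80 ± 0.07). The vascular growth factor VEGFA measured 20.1, 20.2 and 19.5 TPM with FB23 and 82.7, 86.4 and 91 TPM with FB23-2. The peptide hormone ADM measured 0.47, 0.29 and 0.37 TPM with FB23 and 5.29, 5.61 and 6.38 TPM with FB23-2. The oxygen-regulated factor HIF1A itself was not called (44.1 ± 1.81 CPM with FB23 and 42.7 ± 0.95 CPM with FB23-2, mean ± SD, n = 3 each; interval -0.16 to 0.07), and neither was the glycolytic regulator PFKFB3 (interval -0.14 to 0.13). The core letters ACGTG of the hypoxia response element stood in 11 of 23 promoters of the list (47.8%), against 23.3% of all promoters. Genes with these letters had a median log2 fold change of 1.95, and the 12 without 1.34. The longer core GACGTG stood in 3 of the 23, a small number, but a higher share than the 8.83% of all promoters. Glycolysis genes were less uniform, 13 of 21 higher and 5 lower. The neuronal enolase ENO2 measured 13, 13.8 and 13.2 TPM with FB23 and 116, 121 and 115 TPM with FB23-2. The aldolase ALDOC measured 52.2, 52.9 and 59.7 TPM with FB23 and 599, 589 and 549 TPM with FB23-2. Both were far above their FB23 level in every FB23-2 library. The general isoform ENO1 had an interval of -0.03 to 0.16 and hexokinase HK2 one of -0.12 to 0.08. PDHA1, which links glycolysis to the mitochondria, was lower, at 45.9, 47.2 and 46.4 TPM with FB23 and 19, 18.1 and 19.5 TPM with FB23-2. LDHB, a lactate dehydrogenase subunit, was also lower, at 1273, 1309 and 1246 TPM with FB23 and 598, 573 and 610.2 TPM with FB23-2.

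Stress pathways were divided, as were all tested genes, of which 40.4% were higher and 41.1% lower. In the integrated stress response and serine synthesis list 7 of 26 genes were higher and 14 lower, and its median of -0.15 turned positive (0.07) by limma on log2(TPM + 1). ATF4, the central factor of the response, was not called (334 ± 4.69 CPM with FB23 and 337 ± 9.62 CPM with FB23-2, mean ± SD, n = 3 each; interval -0.08 to 0.10), and neither was its target CHAC1 (interval -0.41 to 0.28). The stress factor ATF3 measured 9.61, 9.6 and 9.55 TPM with FB23 and 83, 78.5 and 82.8 TPM with FB23-2. DDIT3 (CHOP) measured 21.4, 22.7 and 22.9 TPM with FB23 and 71.1, 69.4 and 65.1 TPM with FB23-2. Asparagine synthetase ASNS was higher (log2 fold change 0.33 ± 0.05), and the serine pathway genes PSAT1 and CBS were lower (log2 fold changes -1.29 ± 0.06 and -1.38 ± 0.05).

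In the unfolded protein response list 10 of 26 genes were higher and 13 lower, again with a median (-0.17) that turned positive (0.06) by limma on log2(TPM + 1). EDEM1, which sends misfolded glycoproteins to degradation, measured 17.4, 16.1 and 16 TPM with FB23 and 61.8, 62 and 67.8 TPM with FB23-2. The sensor ERN1 (IRE1) measured 4.46, 4.39 and 3.9 TPM with FB23 and 12.2, 13.1 and 13.4 TPM with FB23-2. The chaperone HSPA5 (BiP) and the factor XBP1 were lower (log2 fold changes -0.47 ± 0.04 and -0.89 ± 0.05), and the disulfide isomerase PDIA4 had an interval of -0.12 to 0.06. Of 24 NRF2 and glutathione genes 9 were higher and 11 lower, near the shares over all tested genes (40.4% and 41.1%). The median of these 24 genes, -0.02, turned to 0.15 with upper-quartile scaling. OSGIN1 measured 6.33, 6.76 and 7.28 TPM with FB23 and 19.9, 20.3 and 20.8 TPM with FB23-2. OSGIN1 is a stress-induced target of NRF2, and it was higher. The peroxiredoxin-repairing enzyme SRXN1 went the other way and measured 100.4, 104 and 102 TPM with FB23 and 43, 44.8 and 43.6 TPM with FB23-2, and TXNRD1 had an interval of -0.01 to 0.18.

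Lysosome and autophagy genes were higher in 31 of 41 cases and lower in 7. NEU1, the lysosomal sialidase, measured 69, 71.9 and 72 TPM with FB23 and 752, 767 and 745 TPM with FB23-2. The autophagy receptor SQSTM1 (p62) measured 71.9, 70.8 and 70.1 TPM with FB23 and 678, 685 and 661 TPM with FB23-2. The cholesterol-binding protein NPC2 measured 42.8, 43.1 and 40.1 TPM with FB23 and 313, 293 and 296 TPM with FB23-2. None of these 3 overlapped between the compounds, which in CPM held for 81.2% of all tested genes. LAMP1, an abundant protein of the lysosome membrane, was lower, at 85.1, 86 and 88 TPM with FB23 and 61.4, 59.7 and 61.6 TPM with FB23-2. The extended E-box TCACGTGA of the factor TFEB stood in 5 of 29 promoters (17.2%), against 1.67% of all promoters. The 5 genes with the element had a median log2 fold change of 0.30, and the 24 without 0.72.

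Histone genes were the next group to stand apart. The messages of replication-dependent histones normally end in a stem-loop without a poly(A) tail, so that libraries made from poly(A) RNA hold only their tailed forms. Of 63 such genes 34 had enough counts to be tested, and 32 of these were higher with FB23-2, 1 was lower and 1 not called, with a median of 1.90. The other 29 genes did not pass the filter on low counts, and 12 of the 34 passed only through the FB23-2 libraries and were all called higher. Of the other 22, with a median of 1.84, 20 were higher. HIST2H2BE measured 3.95, 4.94 and 4.9 TPM with FB23 and 75.6, 83.9 and 87.9 TPM with FB23-2, against 1.8 to 2.67 TPM with DMSO (log2 fold change 3.88 ± 0.09). HIST2H2AA3 measured 69, 85.8 and 88.6 TPM with FB23 and 1527, 1520.1 and 1358 TPM with FB23-2, but it has a near-identical copy between which reads may be split. HIST1H2BK was the exception: it measured 1503, 1557 and 1545 TPM with FB23 and 1371, 1441 and 1338 TPM with FB23-2, lower with FB23-2 (log2 fold change -0.36 ± 0.05), while with DMSO it was at 681 to 701 TPM. HIST1H2BJ was not called, with an interval of -0.08 to 0.51.

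The promoters of HIST2H2BE and HIST1H2BK are set side by side because the first gene was higher and the second lower (RefSeq, GRCh38.p14, 250 bases before the start, HIST2H2BE from chr1:149886683-149886932, minus strand, and HIST1H2BK from chr6:27146859-27147108, minus strand). CCAAT on either strand is in capitals, with 3 matches in HIST2H2BE, from -170 to -77, and 6 in HIST1H2BK, from -211 to -79.

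HIST2H2BE: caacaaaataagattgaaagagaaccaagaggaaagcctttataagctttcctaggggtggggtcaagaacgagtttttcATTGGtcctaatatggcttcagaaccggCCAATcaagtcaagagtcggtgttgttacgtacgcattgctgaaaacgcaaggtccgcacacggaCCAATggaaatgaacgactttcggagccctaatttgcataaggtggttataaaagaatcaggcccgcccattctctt

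HIST1H2BK: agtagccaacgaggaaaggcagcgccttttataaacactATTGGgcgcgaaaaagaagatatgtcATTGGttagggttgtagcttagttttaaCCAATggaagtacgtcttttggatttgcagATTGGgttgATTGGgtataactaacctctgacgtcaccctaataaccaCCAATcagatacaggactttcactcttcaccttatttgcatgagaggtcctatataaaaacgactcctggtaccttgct

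Both promoters thus hold the box, as did 27 of 31 histone genes with a promoter (87.1%), against 35.5% of all promoters. The 27 had a median log2 fold change of 1.81, and the 4 without the box 3.0.

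Genes that histone deacetylase inhibitors often raise, some of them histones, were higher in 12 of 14 tested cases and lower in 1, with a median of 2.91. The secreted chaperone CLU measured 1.85, 2.02 and 1.73 TPM with FB23 and 67.9, 71.5 and 62.7 TPM with FB23-2. The vesicle protein SYT11 measured 0.3, 0.38 and 0.37 TPM with FB23 and 8.83, 8.62 and 9.79 TPM with FB23-2. The thioredoxin-binding protein TXNIP measured 102, 100.4 and 95.6 TPM with FB23 and 218, 204 and 235 TPM with FB23-2. CDKN1A, HIST2H2BE and ENO2 belong to the same list. The lower member was the histone HIST1H2BK, and MT1X, a metallothionein, was not called, with a wide interval (-1.25 to 0.61). Among 34 histone deacetylases, acetyltransferases and their partners 9 were higher, 17 lower and 8 not called, and their median of -0.11 turned to 0.12 by limma on log2(TPM + 1). HDAC5 measured 14.6, 14.2 and 14.4 TPM with FB23 and 49, 51.5 and 44.9 TPM with FB23-2. HDAC5, a class IIa deacetylase, was thus higher, and the class I deacetylase HDAC2 lower. HDAC2 measured 51.6, 50.6 and 44.9 TPM with FB23 and 28.4, 28.8 and 31.6 TPM with FB23-2. The acetyltransferase KAT2A measured 93.5, 87.8 and 85.6 TPM with FB23 and 40.1, 41.4 and 45 TPM with FB23-2, and the corepressor NCOR1 had an interval of -0.08 to 0.12.

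The m6A machinery was mostly lower with FB23-2: 22 of 24 genes were lower, 1 was higher and 1 not called, although with limma on log2(TPM + 1) 13 were lower. FTO, the labelled target, measured 13.1, 13 and 11.9 TPM with FB23 and 12.8, 11.8 and 13.1 TPM with FB23-2, against 12.8 to 14.1 TPM with DMSO. Its levels overlapped between the compounds in TPM, and on TMM-scaled counts it was lower with FB23-2 (log2 fold change -0.24 ± 0.06) (edgeR adjusted p = 0.00165). An inhibitor acts on the enzyme, so the transcript level is no check of its activity. The methyltransferase METTL16, which also marks the U6 small nuclear RNA, measured 17.1, 16.5 and 14.2 TPM with FB23 and 5.11, 5.92 and 6.31 TPM with FB23-2. METTL16 was lower in each FB23-2 library. The reader HNRNPA2B1 measured 772, 768 and 695 TPM with FB23 and 369, 374 and 409.9 TPM with FB23-2. The eraser ALKBH5 was the gene that was higher, at 49.5, 44.8 and 47.5 TPM with FB23 and 77.5, 81 and 76.5 TPM with FB23-2 (log2 fold change 0.50 ± 0.05), and the writer subunit ZC3H13 was not called (interval -0.16 to 0.07).

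Inflammatory genes were mostly higher. Of 28 tested NF-kB, chemokine and cytokine genes 24 were higher with FB23-2, 1 lower and 3 not called, with a median of 2.15. Of these 5 passed the filter on low counts only through the FB23-2 libraries and were all called higher, and of the other 23, with a median of 1.85, 19 were higher and 1 lower. TNFRSF9, which encodes the costimulatory receptor 4-1BB, measured 0.1, 0.05 and 0.1 TPM with FB23 and 8.57, 7.9 and 8.0 TPM with FB23-2 (log2 fold change 6.36 ± 0.20). Its FB23 levels were near the floor. IL21R measured 0.15, 0.2 and 0.35 TPM with FB23 and 21.8, 21.9 and 21.6 TPM with FB23-2. RELB, a subunit of the noncanonical pathway chosen for mention after its values were seen, measured 0.95, 0.67 and 0.61 TPM with FB23 and 20.4, 24.1 and 18.5 TPM with FB23-2, whereas NFKB1, the p50 subunit, was not called (interval -0.04 to 0.24). The only member that was lower was TNFRSF8. The promoter of TNFRSF9 is shown for the kappa-B element (GGGA, any 4 bases and CC, searched on both strands, with 2 overlapping matches at -74 and -73, in capitals; RefSeq, GRCh38.p14, chr1:7940840-7941089, minus strand).

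TNFRSF9: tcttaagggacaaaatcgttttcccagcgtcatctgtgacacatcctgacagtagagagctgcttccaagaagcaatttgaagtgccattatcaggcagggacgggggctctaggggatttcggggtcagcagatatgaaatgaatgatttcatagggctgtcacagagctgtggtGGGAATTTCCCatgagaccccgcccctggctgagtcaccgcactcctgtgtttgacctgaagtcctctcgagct

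The element stood in 12 of 22 promoters of the list (54.5%), against 27.7% of all promoters. Genes with it had a median log2 fold change of 2.45, and the 10 without 2.15.

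Immediate-early and MAP kinase feedback genes were higher in 26 of 30 cases and lower in 4. Only the FB23-2 libraries brought 2 of the 30 past the filter on low counts, among them EGR3, and both were called higher. Of the other 28, with a median of 1.94, 24 were higher and 4 lower. The phosphatase DUSP5 measured 2.14, 3.07 and 3.35 TPM with FB23 and 73.5, 74.8 and 66.3 TPM with FB23-2. The zinc finger factor EGR3 measured 0.14, 0.18 and 0.15 TPM with FB23 and 3.03, 3.86 and 3.18 TPM with FB23-2. The 4 lower genes were FOSL1, an AP-1 subunit, at 8.37, 8.99 and 11 TPM with FB23 and 4.36, 4.55 and 5.64 TPM with FB23-2, and the feedback inhibitors SPRY1 (-1.0 ± 0.20), SPRED1 (-0.32 ± 0.10) and SPRY2 (-0.28 ± 0.09). Interferon-stimulated genes divided, 14 of 21 higher and 4 lower. Of the 19 that reached the filter without the FB23-2 libraries, with a median of 0.46, 12 were higher and 4 lower. The GTPase GBP2 measured 0.62, 0.54 and 0.64 TPM with FB23 and 19.7, 20.0 and 22.1 TPM with FB23-2. The antiviral membrane protein IFITM1 was lower and measured 297, 308 and 319 TPM with FB23 and 206, 206 and 184 TPM with FB23-2, while RSAD2 (viperin) had an interval of -0.25 to 0.30. Of 8 tested antigen presentation genes 7 were higher. HLA-E measured 26.4, 26.8 and 27.1 TPM with FB23 and 128, 134 and 129.7 TPM with FB23-2. The NKG2D ligand ULBP2 measured 1.1, 1.79 and 1.62 TPM with FB23 and 11.9, 12.7 and 11.5 TPM with FB23-2. The immunoproteasome subunit PSMB10 was lower, at 44.4, 47.1 and 55.2 TPM with FB23 and 32.6, 32.1 and 23.7 TPM with FB23-2. Reads of HLA genes may be split between alleles and related genes.

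Adhesion genes were mostly higher and cytoskeleton genes divided. Of 23 tested integrins and adhesion genes 17 were higher and 2 lower. Only the FB23-2 libraries brought 8 of the 23 past the filter. Among these was ITGA3, with 42 counts over the 3 FB23 libraries and 18 over the 3 DMSO libraries. Of the other 15, with a median of 0.70, 10 were higher and 2 lower. The integrin ITGA3 was higher and measured 0.12, 0.1 and 0.2 TPM with FB23 and 4.24, 3.31 and 4.11 TPM with FB23-2. The leukocyte adhesion molecule ICAM3 was lower and measured 4.94, 5.53 and 5.04 TPM with FB23 and 2.71, 2.82 and 2.95 TPM with FB23-2, and talin, TLN1, was not called (interval -0.03 to 0.16). In the cytoskeleton list 18 of 34 genes were higher and 12 lower, with 7 lower by limma on log2(TPM + 1). Among all tested genes 40.4% were higher and 41.1% lower. The actin-severing protein GSN measured 4.82, 4.96 and 5.71 TPM with FB23 and 104, 102 and 96.6 TPM with FB23-2. The tubulin TUBA1A measured 63.6, 65.8 and 71.1 TPM with FB23 and 1181, 1183 and 1156 TPM with FB23-2. The tubulin TUBB2B measured 15.4, 16.8 and 19.3 TPM with FB23 and 313, 324 and 292 TPM with FB23-2. All 3 were higher, with no overlap between the groups, which in CPM held for 81.2% of all tested genes. Another tubulin, TUBA1C, was lower, at 825, 845 and 861 TPM with FB23 and 472, 466 and 438 TPM with FB23-2. The nuclear lamin LMNB1 was lower too, at 159, 152 and 153 TPM with FB23 and 81.6, 82.9 and 81.7 TPM with FB23-2. Tubulin genes are close copies, so their reads may be split. ACTB, a common reference gene, was not called (interval -0.24 to 0.04), and GAPDH, another, was higher (log2 fold change 0.22 ± 0.06).

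A difference that misses the threshold does not show that the compounds act alike, so narrow intervals were counted separately. Of the 2475 genes that were not called, 1565 had a 95% interval of the log2 fold change inside -0.5 to 0.5, and for the other 910 the interval reached further, so that a difference of that size was not decided at this depth and number of libraries. A further 1870 genes were called but had an interval inside the same bounds, so that 3435 genes (25.7%) had an interval within 0.5 of 0. These spanned several of the processes described above: the elongation factor EEF1G, the ribosomal protein RPL11, ATF4, IMPDH2, CDC6, the endoplasmic reticulum enzyme PDIA4 and the splicing factor SRSF5 were all within 0.2 of 0 at both ends of the interval. These intervals hold on TMM-scaled counts only. In TPM, EEF1G, ATF4, IMPDH2 and CDC6 were higher in every FB23-2 library than in any FB23 library. With limma on log2(TPM + 1), 4304 genes had an interval inside the same bounds.

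**Figure D5:**
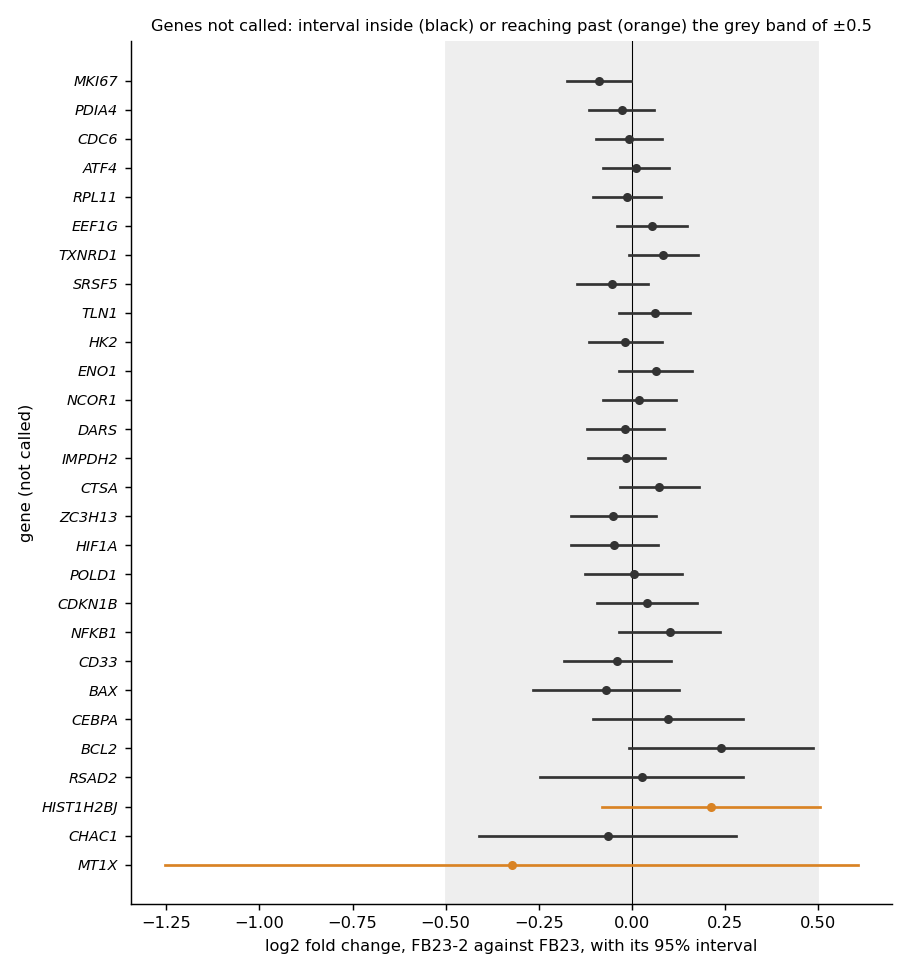
Log2 fold change, FB23-2 against FB23, with its 95% interval (horizontal bars) for 28 named genes that were not called, in order of the width of the interval. Black intervals lie inside the grey band from -0.5 to 0.5; the orange ones of HIST1H2BJ (-0.08 to 0.51) and MT1X (-1.25 to 0.61) reach past it.

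Set against DMSO, FB23 differed at 3144 genes (23.5% of those tested) and FB23-2 at 11041 (82.6%). The 2 comparisons share the DMSO libraries, so their values are only given side by side. Ribosome assembly genes had a median log2 fold change of -0.25 with FB23 and -2.33 with FB23-2, chaperones -0.12 and -1.70, red cell genes -0.05 and -1.53, and mitosis genes -0.06 and -0.86. Cholesterol synthesis genes had medians of 0.22 and 1.73, hypoxia targets 0.03 and 1.93, immediate-early genes 0.24 and 2.28, and histones 1.06 and 2.85. For single genes, CDKN1A had log2 fold changes against DMSO of 0.97 with FB23 and 7.13 with FB23-2, MYC -0.30 and -1.83, and HBG2 0.16 and -3.01.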

How the data were processed

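Poly(A) RNA of 9 libraries labelled NB4 (3 each for DMSO, FB23 and FB23-2, 48 h) was sequenced after a strand-marking kit, per the labels' protocols. The deposited values are RSEM 1.2.31 expected counts (estimated reads per gene, not scaled) and TPM, per the file headers. The submitters' processing notes name this RSEM version and GRCh38. The authors deposited gene lengths beside the values. No source used here gives the aligner, the strand setting or the annotation release.

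Estimates were rounded to integers, and genes were kept by edgeR's filterByExpr (minimum count 10, minimum total 15). The 3 groups were fitted together with edgeR 4.0.16 (TMM scaling, quasi-likelihood test, R 4.3.3). P-values were adjusted by Benjamini and Hochberg over all 13365 genes, and genes under 0.05 were called. Errors are SE on the log2 scale or SD, and intervals are 95%. The script was tested on simulated data with known changes. The counts of each library are given by their range above, and intervals cover the spread between libraries.

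The comparison, its 42 gene lists (1324 genes, 1294 in the files and 1121 tested) and the rules were chosen with earlier results of these data known. Named genes were the 12 highest and 12 lowest called genes without overlap whose log2 CPM averaged 1 or more, the 3 highest, 3 lowest and 3 least changed uncalled members of each list, the most abundant genes with an interval inside -0.5 to 0.5, and a few genes fixed by name. Of these the text describes some, and a few are not reported here. ALAS2, CYBA, RELB, NR1H2 and SPRY2 were added after their values were seen. Promoters came from RefSeq (GRCh38.p14), matched by symbol for 10488 tested genes. Motifs were searched on both strands in the 250 bases before the start. Alternatives covered scaling, filters, DESeq2 1.42.0, limma 3.58.1 on counts and on log2(TPM + 1), a replicate block, thinned depth, GC content and length (GC known for 98.4% of genes), and leaving out each library. List members that reach the filter only through the FB23-2 libraries were counted separately, a count added after the data were seen. Same-numbered FB23 and FB23-2 libraries did not deviate together.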

Additional observations from a re-analysis of the deposited data

How the results depend on the processing

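The counts of genes higher and lower stayed within 1.5 times their reported values under every alternative run, and 4 of the settings moved the balance of directions by 5 or more percentage points. Of calls, 49.5% were higher as reported, 61.6% on log2(TPM + 1) with limma, 58.4% with upper-quartile factors (6395 higher, 4552 lower), 56.3% with library totals (6140 and 4762) and 44.3% with GC and length trends removed (4877 and 6127). The median of the gene by gene shifts in log2 fold change was 0.22, 0.17, 0.13 and -0.10 under these settings. Counts of list members called lower that moved by more than 1.5 times were, with upper-quartile factors, cytosolic ribosomal proteins (12 in place of 19), histone deacetylases and acetyltransferases (11 in place of 17) and cytoskeleton (7 in place of 12). On log2(TPM + 1) they were cytosolic ribosomal proteins (8), DNA replication (19 in place of 29), the unfolded protein response (8 in place of 13), histone deacetylases and acetyltransferases (10), the m6A machinery (13 in place of 22) and cytoskeleton (7). With library totals, 11 histone deacetylases and acetyltransferases were lower. The log2 fold change of HSPA1A turned to -0.09 with GC and length trends removed, and that of NR1H2 to 0.04 on log2(TPM + 1). Beyond the shift of the scale itself, the cause was not tested.

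A further count, added after the data were seen, kept only the 12591 genes that reach the filter on low counts in the DMSO and FB23 libraries. Of these 4733 were higher and 5495 lower, and the list members called higher were 20 histones in place of 32, 6 myeloid markers in place of 11, 6 epithelial, neural and stromal markers in place of 10, and 10 integrins and adhesion genes in place of 17. Fewer genes entered these counts by construction.

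Leaving out each library in turn gave 5255 to 5507 genes higher and 5224 to 5522 lower, and 3158 to 3375 genes with an interval inside -0.5 to 0.5. The replicate numbers did not pair the libraries (correlations of same-numbered deviations 0.019, -0.002 and -0.185, not each library's best). A fit with the replicate number as a block called 10705 genes in place of 10890, 5309 higher and 5396 lower, with 3318 in place of 3435 intervals inside the bounds. Genes with few counts, such as MT1X, are limited by depth.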
